A study of Mus musculus with 38 samples.

Results

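Interleukins and the receptors that read them were followed in mouse spleen after a low dose of X-rays. They comprise 49 of the 21618 distinct probes on the array, namely every probe whose RefSeq accession maps to 1 gene symbol made of Il and a digit, with 1 such gene not reported here. Each of the 49 probes stands for 1 gene. By symbol and known role, 21 encode ligands, 1 (Il18bp) encodes a secreted inhibitor, 26 encode receptor chains and 1 (Il4i1) encodes an enzyme. No measured value entered the choice.

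Interleukins are small secreted proteins by which lymphocytes, macrophages and stromal cells instruct each other. Most of them bind receptors built from a private chain, which recognises the ligand, and a shared chain, such as the common gamma chain or gp130, which passes the signal to JAK kinases and STAT factors. The interleukin 1 and interleukin 17 families instead signal towards NF-κB. In spleen, these proteins control the survival of lymphocytes, the help that T cells give to B cells and the inflammatory output of macrophages.

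Each of 38 two-colour arrays carried RNA of 1 irradiated mouse (10 rad, which equals 10 cGy, whole spleen taken at 3.5 hr) and RNA of 1 sham-exposed mouse of the same strain. Males of 10 to 14 wk, as the labels give the age, came from A/J, B6.C and BalbxJ (8 arrays each), C3H (6 arrays) and BI6Jx and DBA/2J (4 arrays each). The paper calls BalbxJ Balb/C, C3H C3H/HeJ and BI6Jx C57Bl6/J. The orientations were balanced within each strain, giving 19 Cy5 arrays (irradiated RNA labelled with Cy5) and 19 Cy3 arrays. The study's design repeats each pair of mice with the dyes swapped, but from the labels the repeats of a pair cannot be found, so the strain was the unit of replication.

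The deposited value is a signed score per spot, with neither its scale nor its dye direction given in the sources used here. Array medians lay between -3.15 and 3.96, so each array was centred on its median, and values of arrays with irradiated RNA in Cy3 were multiplied by -1. If the deposited ratios divide Cy5 by Cy3, positive values mean that irradiated spleen gave the higher signal. If they divide Cy3 by Cy5, positive values mean that it gave the lower. For that reason sides and sizes are given, and no fold change. The direction of 3 arrays is not settled: B6.C arrays 53 and 50 and BI6Jx array 97 correlated below -0.3 with 3 or more arrays of their own orientation (lowest r -0.449, -0.413 and -0.658 over all probes), where 12 further arrays did so with 1 or 2. Counts and values that change with these 3 arrays are in part marked at the main results, with the arrays turned (multiplied by -1) or left out. Those without a mark may change too. An array gave values for 10941 to 19860 probes. Markers of spleen cells were measured unevenly. B cell markers had values on a median of 97.4% of arrays, neutrophil markers on 94.7%, macrophage markers on 92.1% and erythroid markers on 98.7%. T cell markers, with 73.7%, and natural killer cell markers, with 75%, lay below the 84.2% of all probes. Markers of pancreas, which lies against the spleen, were measured too, and all 13 tested had a negative mean over strains (median -0.457, against -0.00373 for all probes). Their part in the results for interleukins was not tested. In whole spleen, fewer cells of a type and less RNA per cell cannot be told apart.

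The sequence just upstream of the start site is shown for 4 members on which the results turn, since that DNA is where transcription factors act on a gene. They are Il1b, which had the smallest p over strains and encodes the main inflammatory ligand of macrophages, and the 3 members called between strains, Il9 (a T cell cytokine), Il20 (a ligand of the interleukin 10 family) and Il13ra2 (the decoy receptor for interleukin 13). Each run holds the 250 bases before the start of the gene in RefSeq's GRCm38.p6 (C57BL/6J), 5′ to 3′ on the gene's own strand, which is the minus strand for all 4. Il1b lies at chr2:129371140-129371389, Il9 at chr13:56482258-56482507, Il20 at chr1:130911297-130911546 and Il13ra2 at chrX:147429193-147429442. Capitals mark TATAAA, the TATA box, and TGAGTCA, the site of AP-1 factors, on either strand.
Il1b: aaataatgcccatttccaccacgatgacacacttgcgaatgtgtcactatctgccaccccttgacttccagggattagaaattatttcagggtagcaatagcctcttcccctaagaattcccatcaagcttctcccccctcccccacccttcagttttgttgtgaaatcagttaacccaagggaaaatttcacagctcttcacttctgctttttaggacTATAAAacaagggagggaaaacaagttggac
Il9: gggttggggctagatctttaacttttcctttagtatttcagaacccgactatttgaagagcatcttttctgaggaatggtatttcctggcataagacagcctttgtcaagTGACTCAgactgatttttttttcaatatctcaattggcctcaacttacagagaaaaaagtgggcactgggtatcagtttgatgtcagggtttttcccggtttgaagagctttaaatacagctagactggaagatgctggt
Il20: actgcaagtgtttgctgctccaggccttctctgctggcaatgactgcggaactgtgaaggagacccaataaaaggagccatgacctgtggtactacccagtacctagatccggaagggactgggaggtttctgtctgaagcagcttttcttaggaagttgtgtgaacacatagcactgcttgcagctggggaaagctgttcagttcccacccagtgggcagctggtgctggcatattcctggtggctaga
Il13ra2: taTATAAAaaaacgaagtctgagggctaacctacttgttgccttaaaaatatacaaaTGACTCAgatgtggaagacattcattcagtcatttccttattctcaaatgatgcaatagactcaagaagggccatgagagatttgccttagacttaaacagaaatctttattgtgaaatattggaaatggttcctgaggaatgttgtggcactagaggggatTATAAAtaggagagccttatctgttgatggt

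TATAAA began 31 bases before the start in both Il1b and Il13ra2, and Il13ra2 held it again 248 bases before the start. TGAGTCA was read on the opposite strand 140 bases before the start of Il9 and 193 bases before that of Il13ra2. Neither was found in these letters of the Il20 window. Of 49 such windows for 38 of the members, 8 held TATAAA (16.3%, against 12.4% of 32851 windows of all genes) and 8 held TGAGTCA (16.3%, against 4.46%). The motifs do not overlap each other, and a match is a description of the sequence only.

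The authors removed spots of poor quality or low expression, so the share of arrays with a value is described for each probe. A value alone does not show expression, since 11.3% to 20.4% of the nonspecific buffer spots of an array also had one. Ligands had values on a median of 34 arrays of 38 and receptor chains on a median of 35, against 32 for all probes. Values on all 38 arrays were obtained for 3 ligands (Il13, Il16 and Il22) and for 6 receptor chains (Il1r1, Il6ra, Il11ra1, Il12rb1, Il17rb and Il21r), which makes 18.4% of the 49 members against 13.1% of all probes. At the other end stood 4 ligands. Il15, a growth factor of natural killer and memory T cells, had a value on 8 arrays. Il7, the stromal growth factor of lymphocyte precursors, Il21, a product of follicular helper T cells, and Il1f5, an antagonist of the interleukin 36 receptor, had values on 5 arrays each. That is 13.2% of arrays, within the range given for buffer spots. Among receptor chains the fewest values were those of Il5ra, the private chain of the interleukin 5 receptor on eosinophils, with 15 arrays, and Il11ra2, a close copy of Il11ra1 with which it may share signal, with 17. By strain, ligand probes gave between 63.1% of possible values in A/J and 81% in DBA/2J, and receptor probes between 73.6% in A/J and 88.9% in BalbxJ, against 66.2% in A/J to 81.8% in DBA/2J for all probes.

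**Figure D1:**
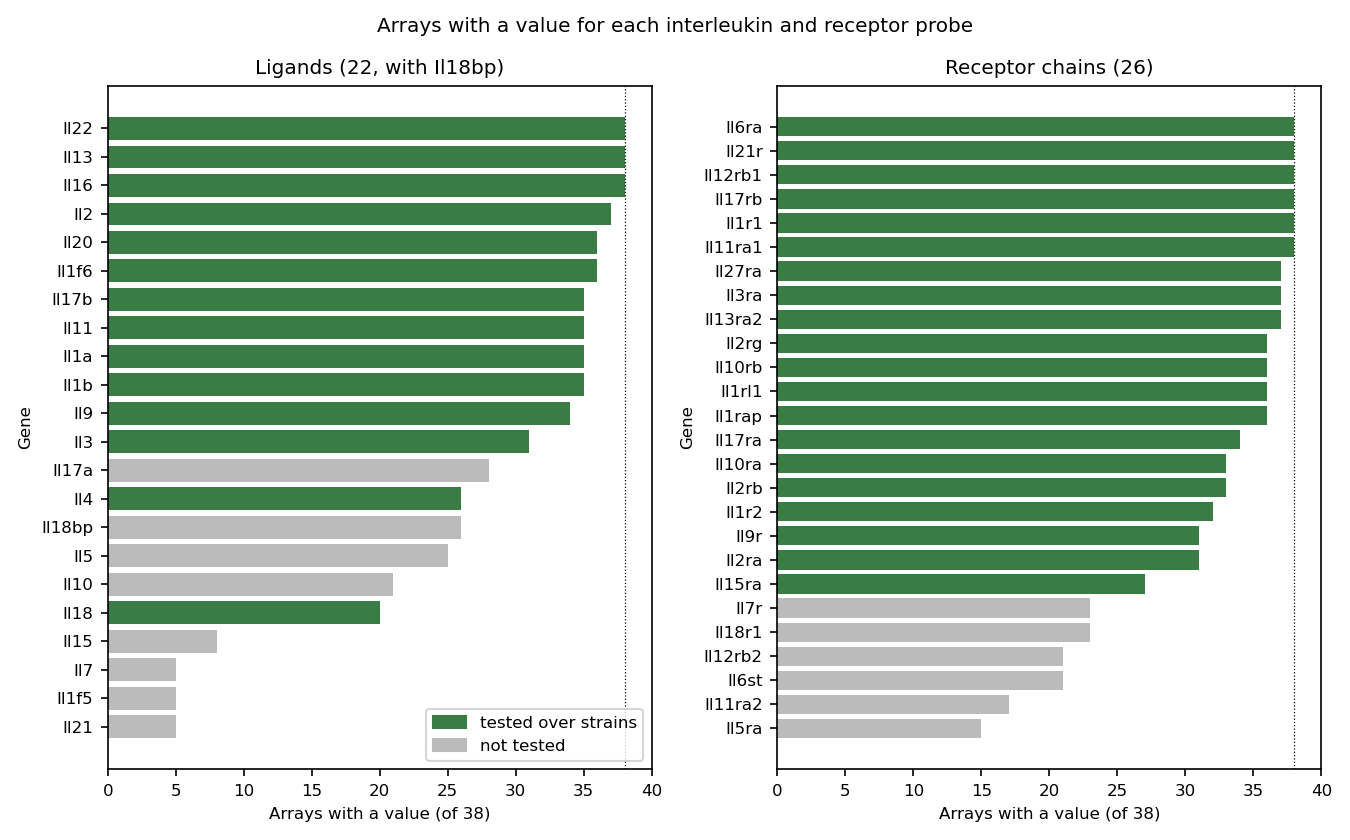
Arrays with a value (x axis, of 38) for 22 ligand probes, the inhibitor Il18bp included (left), and 26 receptor probes (right), in green where the gene was tested over strains and in grey where it was not. Il15, Il7, Il1f5 and Il21 stand at 8 arrays or fewer, whereas no receptor chain falls below 15.

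Of the 49 members, 34 (14 ligands and 20 receptor chains) were tested over the 6 strains, having 19 or more arrays with a value and each dye orientation in every strain. The 15 not tested were the ligands Il5, Il7, Il10, Il15, Il17a, Il21 and Il1f5, the inhibitor Il18bp, the receptor chains Il5ra, Il6st, Il7r, Il11ra2, Il12rb2 and Il18r1, and Il4i1. In each strain the mean of both orientations was taken, so that a bias between the dyes cancels, and the 6 strain values were tested against 0. None of the 34 passed an adjusted p of 0.05 (limma with Benjamini-Hochberg adjustment over 14513 probes), as did 0 of all 14513 (0%). At an unadjusted p under 0.05 stood 1 of the 34 members, Il1b, whereas 8.28% of all probes did. With the unsettled arrays turned this count was 2, and without them 1. With the spread of each probe taken alone, instead of limma's moderated spread, none of the 34 reached an unadjusted p of 0.05. The smallest p of the exact sign-flip permutation test over 6 strains among the members was 0.0938 (Il9r, two-sided), where 0.03125 is the smallest it can give. No member had the same sign in all 6 strains, as 4.27% of all probes did, and 7 of 34 (20.6%) had the same sign in 5, against 26.1% of all probes with 5 or 6. With the unsettled arrays turned, 6 of 34 had the same sign in 5, and without them 7 of 32.

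The sizes were small beside the spread between strains. The median size of the mean was 0.126 for the members and 0.154 for all probes, with a median SD over strains of 0.421 and 0.383. Ligands had a median mean of 0.0699, 8 of 14 on the positive side, and receptor chains one of 0.105, 12 of 20 on the positive side, against -0.00373 and 49.4% of all probes. Positive means thus made up 58.8% of the 34 members. With the arrays as deposited, not centred, which moved the median of all probes to 0.121, they made up 85.3%, and with the 3 unsettled arrays turned 73.5%. Ligands lay low in B6.C, with a median of -0.191 and 3 of 14 on the positive side, and in A/J, with -0.121 and also 3 of 14. The B6.C median was -0.0573 (6 of 14 positive) with its 2 unsettled arrays turned and -0.122 (3 of 14) without them, so which of B6.C and A/J lay lower depends on them. Ligands lay highest in DBA/2J, with 0.372 and 9 of 14. Receptor chains ranged less, from -0.107 in BI6Jx (8 of 20 positive) to 0.115 in BalbxJ (14 of 20), and BI6Jx was 0.0484 (11 of 20) with array 97 turned. For all probes the strain medians lay between -0.0591 in C3H and 0.0655 in DBA/2J. None of these medians was tested.

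**Figure D2:**
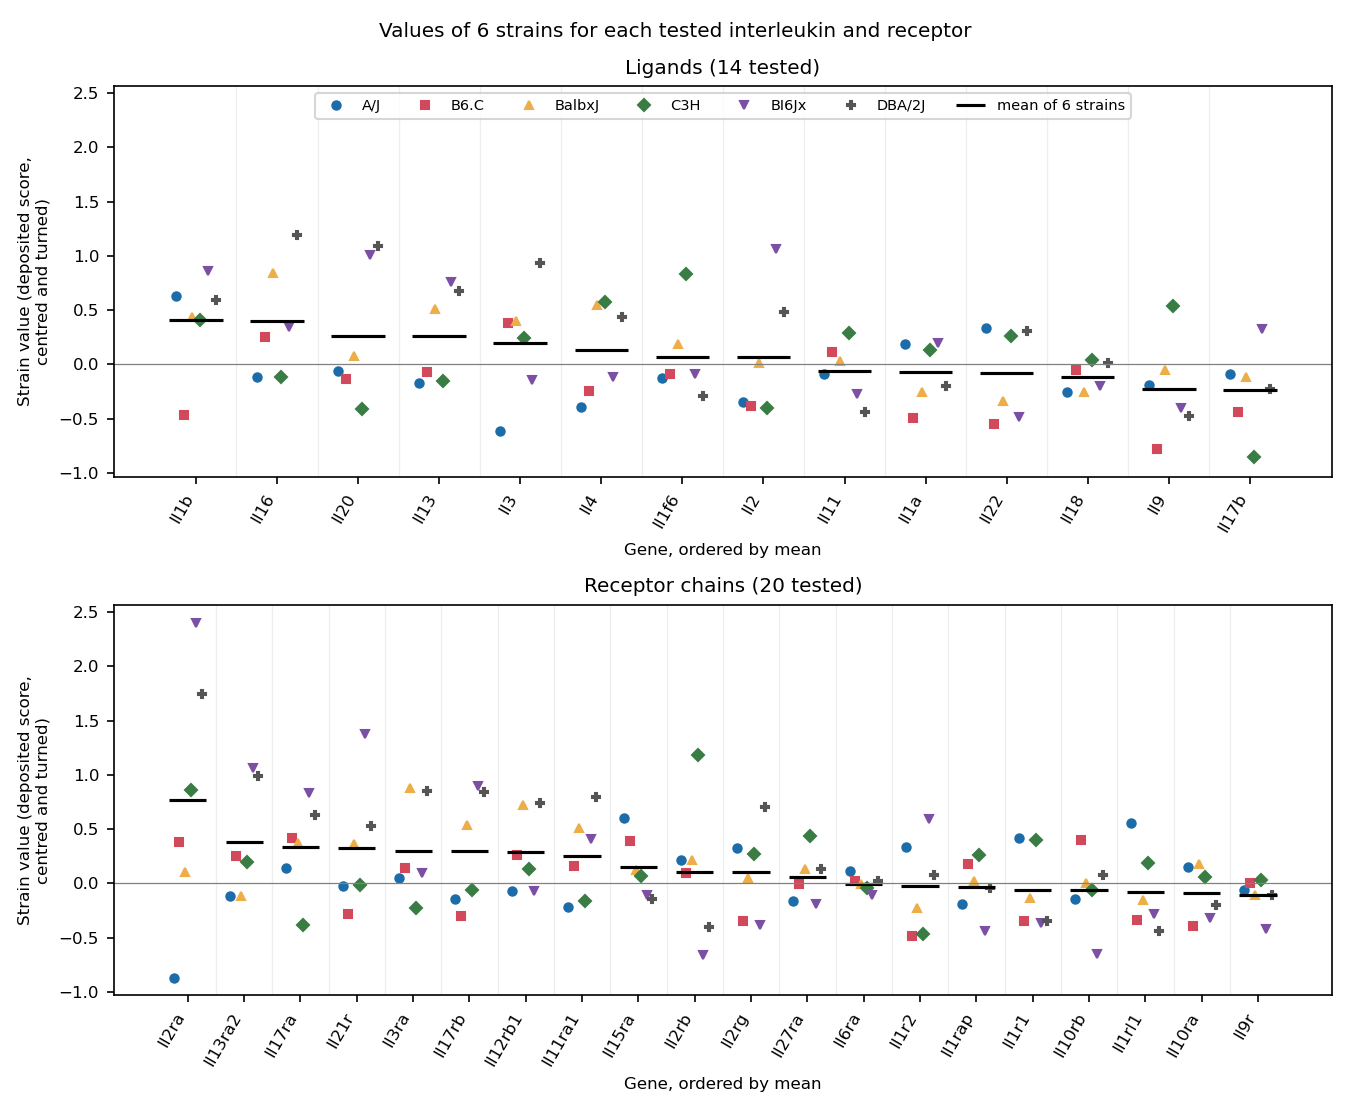
Strain values (y axis, deposited score, centred on array medians, with the sign of Cy3 arrays turned) of the 14 ligands (top) and 20 receptor chains (bottom) that were tested. Genes are ordered by the mean of 6 strains (black bars). Coloured symbols are the 6 strains, and for every gene they lie on both sides of 0.

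Il1b, the fever cytokine that macrophages release after cleavage by the inflammasome, was the member with the smallest p. In A/J its values were 1.33, 0.159 and 2.65 with the irradiated RNA in Cy5 and 1.26, -0.541 and -1.09 with it in Cy3. In BalbxJ they were 0.104, 1.46 and 3.37 in Cy5 and -0.444, -0.628, -0.923 and -1.09 in Cy3. C3H gave 0.889, 1.06 and 0.799 in Cy5 and 0.590, -0.527 and -0.371 in Cy3. These 3 strains thus lay on the positive side on every Cy5 array and on both sides, or below 0, on Cy3 arrays. BI6Jx gave 2.37 and 0.928 in Cy5 and -1.48 and 1.64 in Cy3, and DBA/2J 2.74 and 1.02 in Cy5 and -0.365 and -1.005 in Cy3. B6.C stood apart, with 0.390, -2.73, 0.0457 and -0.360 in Cy5 and 0.275, -1.18, -0.489 and 0.324 in Cy3.

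As strain values these come to 0.630 in A/J, -0.467 in B6.C, 0.436 in BalbxJ, 0.406 in C3H, 0.864 in BI6Jx and 0.599 in DBA/2J. B6.C was negative and the other 5 strains were positive, which also held with the unsettled arrays turned or left out. Both ends moved with those arrays, however. BI6Jx was 0.0455 with array 97 turned and 0.0845 without it, and B6.C was -0.0805 with arrays 53 and 50 turned and -0.365 without them. The mean over strains was 0.339 with all 3 turned and 0.298 without them. With all arrays as labelled it was 0.411 ± 0.460 (SD over 6 strains), with a 95% interval from limma of 0.0228 to 0.800, an unadjusted p of 0.0402 and an adjusted p of 0.564. Without B6.C the mean was 0.587 (adjusted p = 0.607, limma). The exact sign-flip permutation test over the strain values gave p = 0.125.

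The other 7 tested genes of the interleukin 1 family had means nearer 0. Il1a, an alarm cytokine of dying cells, had a mean of -0.0708 ± 0.287 (SD over 6 strains) and Il1f6, interleukin 36 alpha, one of 0.0700 ± 0.405. Il1f6 was highest in C3H, at 0.835, and between -0.294 and 0.186 in the other 5 strains. Of the receptors of the family, Il1r1, which signals, had a mean of -0.0626 ± 0.376, Il1r2, the decoy, one of -0.0273 ± 0.440, and Il1rap, an accessory chain that several of these receptors share, one of -0.0363 ± 0.254. Il18, which drives interferon gamma, and Il1rl1, the receptor for interleukin 33, had means of -0.117 ± 0.135 and -0.0773 ± 0.380. The lowest adjusted p of these 7 genes was 0.679 (limma). In B6.C, 7 of the 8 tested genes of the family were on the negative side (median -0.343), and in C3H 7 of 8 were on the positive side (median 0.225). With the unsettled B6.C arrays turned, 5 of 8 were negative there (median -0.0662), and 5 of 8 also without them (median -0.0875).

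Il16, a chemoattractant that binds CD4, came next among the ligands, with a mean of 0.401 ± 0.526 (SD over 6 strains, unadjusted p = 0.0620 and adjusted p = 0.564, limma). Its strain values were -0.113 in A/J, 0.252 in B6.C, 0.847 in BalbxJ, -0.116 in C3H, 0.343 in BI6Jx and 1.19 in DBA/2J, so 4 strains lay above 0 and A/J and C3H just below it. BI6Jx was -0.0158 with array 97 turned and -0.623 without it, and B6.C -0.0627 and 0.126, so that 2 strains lay above 0 with the unsettled arrays turned and 3 without them. Il13 and Il4, the cytokines of type 2 responses, had means of 0.258 ± 0.436 and 0.135 ± 0.432, and Il3, a growth factor of mast cells and myeloid progenitors, one of 0.202 ± 0.529. All of them held strains on both sides of 0. Il13 lay at 0.756 in BI6Jx, 0.679 in DBA/2J and 0.511 in BalbxJ, and between -0.172 and -0.0681 in the other 3 strains. Without array 97 the BI6Jx value of Il13 was 0.121, and with it turned 0.216. Il3 ranged from -0.614 in A/J to 0.935 in DBA/2J. Its BI6Jx value, -0.142, was -0.787 with array 97 turned and -1.56 without it.

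Of the 14 ligands, 6 had a negative mean. With the unsettled arrays turned, the means of Il1a, Il11 and Il22 were positive, and without those arrays the means of Il11 and Il22. Il17b, of the interleukin 17 family, had a mean of -0.233 ± 0.393 (SD over 6 strains, adjusted p = 0.588, limma) and was negative in 5 of 6 strains, with the lowest value, -0.850, in C3H and 0.329 in BI6Jx. With the unsettled arrays turned it was negative in 4, B6.C being 0.260. Il9, a cytokine of mast cells and T cells, was also negative in 5 of 6, with a mean of -0.225 ± 0.452 and C3H at 0.541. Il11, a stromal cytokine that signals through gp130, and Il22, which acts on epithelial barriers, lay closer to 0, with means of -0.0615 ± 0.265 and -0.0756 ± 0.423. Il2, the growth factor of T cells, had a mean of 0.0697 ± 0.593, which joins 1.06 in BI6Jx and 0.482 in DBA/2J with values of -0.403 to 0.0118 in the other 4 strains. Its BI6Jx value was 0.410 with array 97 turned and 0.551 without it. The interval of the Il2 mean ran from -0.395 to 0.535.

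Among receptor chains the largest mean was that of Il2ra, which encodes CD25, the high-affinity chain of the interleukin 2 receptor on activated and regulatory T cells. Its 31 values covered -8.60 to 6.67, the widest range among the members tested. Strain values were -0.869 in A/J, 0.385 in B6.C, 0.109 in BalbxJ, 0.856 in C3H, 2.40 in BI6Jx and 1.75 in DBA/2J. The mean of 0.772 ± 1.17 (SD over 6 strains) had an interval of -0.0620 to 1.61, an unadjusted p of 0.0658 and an adjusted p of 0.564 (limma). The BI6Jx value joins 6.58 and 5.62 in Cy5 with -6.06 and 3.46 in Cy3 (arrays 95 and 97), array 97 being one of unsettled direction. It became 0.672 with that array turned and 0.0230 without it, and with the 3 unsettled arrays left out the mean over strains was 0.347. The other chains of the same receptor lay lower, Il2rb at 0.106 ± 0.637 and Il2rg, the common gamma chain, at 0.105 ± 0.419.

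Il17ra, the chain shared by receptors of the interleukin 17 family, was positive in 5 of 6 strains, with a mean of 0.335 ± 0.423 (SD over 6 strains, adjusted p = 0.564, limma) and C3H at -0.383. With the unsettled arrays turned it was positive in 4, B6.C being -0.0310. Il17rb, the receptor for interleukins 17B and 25, had a mean of 0.295 ± 0.528, with 0.897 in BI6Jx, 0.842 in DBA/2J and 0.539 in BalbxJ against -0.297 to -0.0652 in the other 3. Its BI6Jx value was -0.162 with array 97 turned and 0.155 without it. Il21r, the receptor for interleukin 21 on lymphocytes, had a mean of 0.324 ± 0.592 and its highest value, 1.37, in BI6Jx, which was -0.0651 with array 97 turned and 0.457 without it. Il12rb1, the chain shared by the interleukin 12 and 23 receptors, and Il3ra, the private chain of the interleukin 3 receptor, had means of 0.288 ± 0.367 and 0.297 ± 0.458. Both had their 2 highest values in BalbxJ (0.722 and 0.877) and DBA/2J (0.743 and 0.853). The BI6Jx value of Il12rb1 was 0.747 with array 97 turned and 0.290 without it. Il11ra1, the private chain of the interleukin 11 receptor, had a mean of 0.249 ± 0.397 with 0.795 in DBA/2J. The adjusted p of these 6 receptor chains lay between 0.564 and 0.581 (limma).

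At the other extreme stood Il6ra, the private chain of the interleukin 6 receptor. It had values on all 38 arrays and strain values of 0.109 in A/J, 0.0221 in B6.C, -0.00894 in BalbxJ, -0.0443 in C3H, -0.111 in BI6Jx and 0.0216 in DBA/2J. Its SD over strains, 0.0738, was the smallest of the 34 members, and the interval of its mean, -0.00179, ran from -0.236 to 0.232. Its B6.C value was -0.385 with the unsettled arrays turned and -0.242 without them, and its BI6Jx value 0.0712 and 0.278. The single arrays did not lie near 0. With irradiated RNA in Cy5, 15 of 19 were negative (median -0.641), and with it in Cy3 15 of 19 were positive (median 0.677). Of the other tested receptor chains, Il15ra, which presents interleukin 15, had a mean of 0.154 ± 0.289 (SD over 6 strains) and Il27ra, the receptor for interleukin 27, one of 0.0562 ± 0.232. Both chains of the interleukin 10 receptor had negative means, Il10ra -0.0861 ± 0.246 and Il10rb -0.0631 ± 0.346.

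An opposition between the orientations was common among the members. It is expressed here as a dye term, the turned mean of a strain's Cy5 arrays minus its strain value, averaged over the 6 strains. Its size exceeded that of the mean over strains in 28 of the 34 members (82.4%) and in 72.8% of all probes, with medians of 0.409 and 0.285. Il13ra2, the decoy receptor for interleukin 13, had the largest, 1.79 ± 1.39 (SD over 6 strains), followed by Il2ra with 1.70 ± 2.33, Il16 with 1.42 ± 0.668 and Il17ra with 1.10 ± 0.831. Il16 shows it plainly: 19 of 19 arrays were positive with irradiated RNA in Cy5 and 15 of 19 were negative with it in Cy3.

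A dye term above 0.4 went with a positive mean in most members and probes. Of the 14 members with a dye term above 0.4, 13 had a positive mean (92.9%, median 0.296), as did 90.9% of the 3479 probes of that kind on the array (median 0.277). Between -0.4 and 0.4 these shares were 6 of 17 members (35.3%) and 33.7% of all probes. Below -0.4 they were 1 of 3 members (33.3%) and 48.9% of 1888 probes, so the share did not fall steadily with the dye term over all probes. The members with the 6 largest positive means, Il2ra, Il1b, Il16, Il13ra2, Il17ra and Il21r, all belonged to the 14. Dye terms above 0.4 were found in 41.2% of the members and 24% of all probes.

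**Figure D3:**
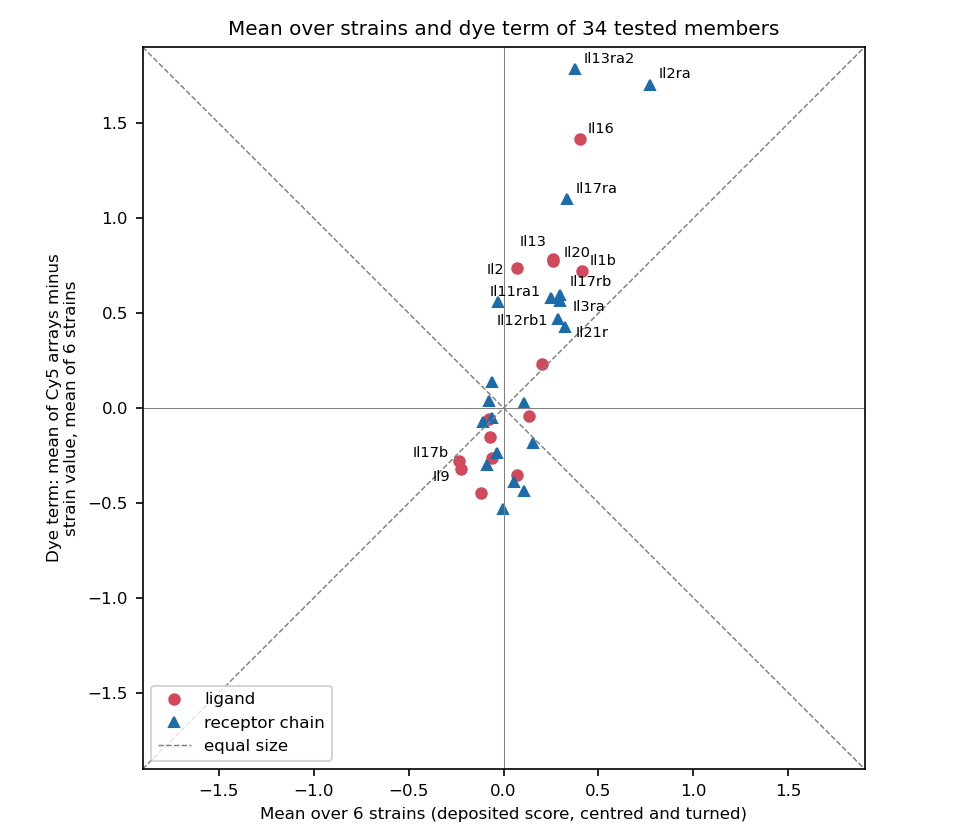
Dye term (y axis, mean of the Cy5 arrays minus the strain value, mean of 6 strains) against the mean over 6 strains (x axis) for 14 ligands (red circles) and 20 receptor chains (blue triangles), both in units of the deposited score. Dashed lines mark equal size, and 28 of the 34 genes lie where the dye term is the larger, with Il13ra2, Il2ra, Il16 and Il17ra highest.

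The dye term also ranged widely between strains, in ways that were not tested. In C3H it was -4.36 for Il4, -3.002 for Il2rg, -2.15 for Il9 and -1.82 for Il2ra, whereas the other 5 strains lay between 0.0708 and 1.61 for Il4 and between -0.181 and 0.360 for Il2rg. These genes were picked out after their values were seen. Arrays were centred but not scaled, and the SD of their probe spots ran from 0.615 to 2.34. It was 1.33 to 2.34 in C3H and 0.615 to 1.27 in B6.C, so sizes are not on 1 scale between strains. For Il4, the cytokine of Th2 cells that switches B cells to IgE, the C3H arrays gave -5.09 and -2.47 with irradiated RNA in Cy5 and 4.95 and 4.92 with it in Cy3, which left a strain value of 0.575. For Il13ra2 and Il2ra the dye terms in B6.C were -0.268 and -0.0860, where BalbxJ had 3.38 and 4.35. For Il9 and Il2rb, B6.C had 0.685 and 0.711 and BalbxJ -0.278 and -0.146.

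Whether strains differ was tested over the 19 arrays that had irradiated RNA in Cy5, which under a full dye swap are 19 different pairs of mice. Of 25 members with at least 2 values in each strain, 2 passed an adjusted p of 0.05 (8%), against 369 of 10465 probes (3.53%). At an unadjusted p under 0.05 stood 12 of 25 members, against 26% of all probes. The 2 were Il13ra2 (adjusted p = 0.0186, limma's F test) and Il20 (adjusted p = 0.0317). Il4 was next, with 0.0509, then Il21r with 0.0959, Il17rb with 0.0990 and Il11 with 0.102. A single orientation does not remove a dye term that differs between strains.

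Il13ra2 on the Cy5 arrays was lowest in B6.C, with 0.148, 0.308, 0.189 and -0.718. C3H gave 1.42, 1.29 and 0.948 and A/J 1.07, 3.52, 1.64 and 0.718. BalbxJ gave 2.49, 3.80, 3.42 and 3.37. The highest mean was that of BI6Jx, with 5.43 and 3.20, and DBA/2J gave 3.58 and 1.35. B6.C and C3H thus lay below every array of BalbxJ and BI6Jx. On the Cy3 arrays B6.C lay above BalbxJ, with 1.07, -0.317 and 0.796 in B6.C and -0.887, -2.90, -2.89 and -7.31 in BalbxJ, and the test over those arrays gave an adjusted p of 0.487 (limma). With all 38 arrays and a dye term for each strain, an alternative chosen after seeing the data, the adjusted p was 0.942. With array 53 turned, the adjusted p over the Cy5 arrays was 0.0309, and without it 0.0465. With arrays scaled as well as centred it was 0.0237, and with a looser filter on missing values 0.0154. The call was lost without B6.C (adjusted p = 0.189), without BI6Jx (0.0505), without BI6Jx array 11 (0.0614) and without B6.C array 47 (0.0560), and after quantile normalization (0.0662).

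Il20, a cytokine that acts on epithelial cells, lay high on the Cy5 arrays of BI6Jx (2.69 and 2.23) and DBA/2J (3.87 and 1.41). The other strains stayed closer to 0, with 0.122, 0.174, 0.387 and 1.19 in A/J, -0.467, 0.0456, -0.0212 and -0.585 in B6.C, 0.297 and 1.24 in BalbxJ and 0.0170, 0.280 and 0.0780 in C3H. No array of these 4 strains reached the lowest of BI6Jx or DBA/2J. On the Cy3 arrays BI6Jx gave -1.90 and 1.003 and DBA/2J -0.162 and -0.738, so that BI6Jx had both the lowest and the highest array (the highest being array 97) and DBA/2J lay within the range of the other strains. The adjusted p there was 0.826 (limma). The strain values of BI6Jx and DBA/2J, 1.005 and 1.09, stood above those of the other 4 strains, -0.413 to 0.0768. They average in the same Cy5 arrays, however, and so are no separate evidence. On the Cy3 arrays alone the means of BI6Jx and DBA/2J were -0.449 and -0.450, within the -0.952 to -0.0181 of the other strains. The BI6Jx strain value was 0.504 with array 97 turned and 0.279 without it. With a dye term for each strain Il20 had the smallest p of the 34 members (unadjusted p = 0.00927, adjusted p = 0.287, limma over 38 arrays, where repeats of the same mice make p too small). In that fit 0 of the 34 members passed, against 0.792% of 14513 probes, and 6 had an unadjusted p under 0.05, against 10.7%. With array 53 turned the adjusted p of Il20 over the Cy5 arrays was 0.0464. With arrays scaled as well as centred it was 0.00395, and with a looser filter on missing values 0.0280. The call of Il20 over the Cy5 arrays was lost when B6.C (0.152), BI6Jx (0.0937) or C3H (0.0729) was left out, and after quantile normalization (0.0560). It was lost too without either BI6Jx array (0.101 and 0.0785), DBA/2J array 34 (0.0537) or any of the 4 B6.C arrays (0.0526 to 0.0755).

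Over the 19 Cy3 arrays, the same test called 229 of 9457 probes (2.42%) and 1 of 25 members, Il9 (adjusted p = 0.0103, limma's F test), which on the Cy5 arrays had an adjusted p of 0.599. With the sign turned as for all Cy3 arrays, its values there were 3.01 and 2.37 in C3H and -1.98, -1.55, -0.484 and -1.85 in B6.C. A/J gave 0.185, 0.800, -0.353 and 0.393 and BalbxJ 0.366, 0.633 and -0.309. BI6Jx gave 0.0645 and -0.621 and DBA/2J -1.88 and 0.154. C3H therefore lay above all other strains, and 3 of the 4 B6.C arrays lay below every other array but 1 of DBA/2J. With irradiated RNA in Cy5, C3H was the lowest strain, at -1.17, -0.818 and -2.83, and B6.C gave -1.62, -0.567, -0.128 and 1.93. The strain values of Il9, 0.541 in C3H and -0.781 in B6.C, average both orientations. Over the Cy3 arrays the means were 2.69 in C3H and -1.47 in B6.C, and over the Cy5 arrays -1.61 and -0.0960. The wider Cy3 gap sets the order of the strain values, which therefore are no separate evidence. The adjusted p over the Cy3 arrays was 0.0826 with B6.C array 50 and BI6Jx array 97 turned and 0.0188 without them, and 0.00416 to 0.0494 when each of the 19 arrays was left out. With a dye term for each strain it was 0.641 (limma).

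**Figure D4:**
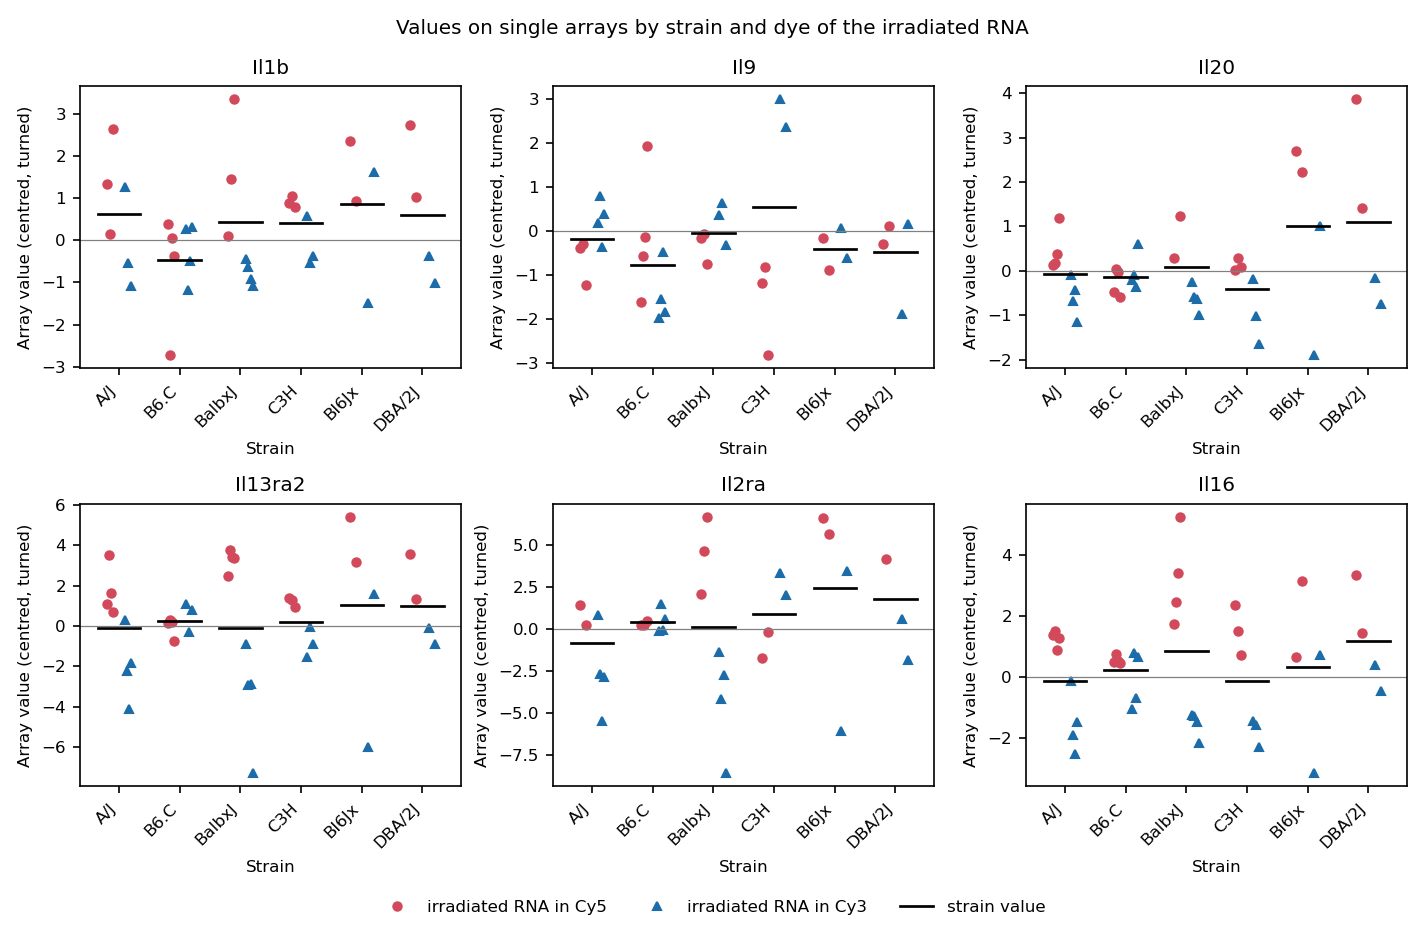
Values on single arrays (y axis, deposited score, centred and turned) by strain (x axis) for 6 members, with irradiated RNA in Cy5 as red circles and in Cy3 as blue triangles, and black bars for the strain value, the mean of both orientations. For Il16, Il13ra2 and Il20 the red and blue symbols part in most strains, and the black bars lie between them, whereas Il9 parts mainly in C3H.

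Within single strains, a fit over all 38 arrays with 1 dye term gave each strain its own response, with p-values that are too small because arrays of a swap hold the same mice. Where values are missing, the fitted value of a strain differs from its strain value. No member passed an adjusted p of 0.05 in any strain (limma), where the shares of all probes were 0% in A/J, 0.179% in B6.C, 0% in BalbxJ, 0.51% in C3H, 0.0345% in BI6Jx and 0% in DBA/2J. At an unadjusted p under 0.05 there were 0 members in A/J (0.42% of all probes), 0 in B6.C (5.7%), 3 in BalbxJ (8.32%), 3 in C3H (11.9%), 3 in BI6Jx (6.39%) and 4 in DBA/2J (6.21%), of 34 each. In BalbxJ these were Il3ra (0.927 ± 0.266, SE), Il12rb1 (0.722 ± 0.220) and Il16 (0.847 ± 0.414). In DBA/2J they were Il20 (1.09 ± 0.436), Il16 (1.19 ± 0.586), Il3ra (0.853 ± 0.351) and Il12rb1 (0.743 ± 0.311), the last 3 of them shared with BalbxJ. In DBA/2J these 3 were highest on Cy5 array 34 (3.35, 2.00 and 1.61) and in BalbxJ on Cy5 array 36 (5.25, 3.30 and 2.66). Arrays 34 and 36 had values on 5.32% and 7.87% of blank spots, where the 38 arrays ranged from 0% to 10.4%. The part of these arrays in the sharing was not tested. In BI6Jx they were Il21r (1.37 ± 0.436), Il20 (1.005 ± 0.436) and Il17rb (0.897 ± 0.432), which without array 97 had strain values of 0.457, 0.279 and 0.155.

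In C3H, Il1f6 (0.835 ± 0.252, SE) and Il2rb (1.64 ± 0.504) lay on the positive side and Il17b (-1.19 ± 0.501) on the negative side. Il2rb encodes a chain shared by the interleukin 2 and 15 receptors on T and natural killer cells. Its C3H arrays gave -0.0528 in Cy5 and 1.22 and 3.62 in Cy3. When C3H array 29 was left out, its fitted value was 2.68 ± 0.560 (SE) and its adjusted p 0.00272 (limma), the only call of a member within a strain among the 38 fits that each left out 1 array. Array 29 is the only Cy5 array of C3H with a value for Il2rb, so without it the dye is corrected only by the term of the other strains, whose dye terms lay between -0.146 and 0.711 where that of C3H was -1.23. Strain values of Il2rb in the other 5 strains lay between -0.661 and 0.212.

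Ligands were also set beside their own receptor chains, 16 pairs in which both were tested. Il9 and Il9r, the private chain of its receptor, had the same sign in 6 of 6 strains, negative in 5 and positive in C3H. Il9r values were small, -0.0643 in A/J, -0.000448 in B6.C, -0.105 in BalbxJ, 0.0344 in C3H, -0.419 in BI6Jx and -0.107 in DBA/2J, with a mean of -0.110 ± 0.161 (SD over 6 strains). Il1a and Il1r1, Il1f6 and Il1rap, and Il4 and Il2rg shared a sign in 5 of 6 strains. Il2 and Il2rb did so in 1 of 6, while Il2 and Il2ra did so in 4. With the unsettled arrays turned or left out Il9 and Il9r still shared a sign in 6 strains, the 3 pairs with 5 in 4 to 6, and Il2 and Il2rb in 2. The remaining 10 pairs shared a sign in 2 to 4 strains. Among them Il13 and its decoy Il13ra2 shared it in 3, and Il22 and Il10rb, the chain shared by receptors of the interleukin 10 family, in 2. Probes on 1 array share its centring and dye terms, and the counts were not tested.

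By family, all 5 tested genes of the group of interleukins 3, 4, 5 and 13 had a positive mean (median 0.258). None of them was Il5 or Il5ra, and Il13, Il13ra2 and Il3ra had dye terms above 0.4. Means were positive in 6 of 8 genes of the common gamma chain group (median 0.105) and 2 of 3 of the interleukin 17 family. In the interleukin 1 family 2 of 8 were positive (median -0.0494). The interleukin 12 family had 2 of 2, the gp130 cytokines 1 of 3 and the interleukin 10 family 1 of 4, against 49.4% of all probes. In DBA/2J the 5 genes of the first group were all positive (median 0.853), and in A/J 1 of 5 was (median -0.172). Without the unsettled arrays the mean of Il3 was -0.0727, so the first group was then not positive throughout. In BI6Jx, 3 of its 5 genes were positive with arrays as labelled, 3 with the unsettled arrays turned and 1 without them. In B6.C these counts were 3, 2 and 4. Downstream of the receptors, 14 genes of JAK-STAT signalling were tested, of which 9 had a positive and 5 a negative mean (median 0.0487), and 9 genes of signalling from the interleukin 1 receptor to NF-κB, 5 positive and 4 negative (median 0.0487). Of 6 tested targets of p53, the factor that responds to radiation damage, 1 was positive and 5 negative (median -0.124). None of these 29 genes reached an unadjusted p of 0.05 over strains, and none passed the adjusted p between strains among the 23 tested there.

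Of the members that could not be tested, several had wide values on the arrays that measured them, as seen after the values were known. Il7 had the highest single value of all members, 8.91, on 1 of its 5 arrays, with a median of 1.34. All 5 were Cy5 arrays and 0 were Cy3 arrays, so a bias between the dyes does not cancel in these values. Il5, the growth factor of eosinophils, covered -7.03 to 7.08 over 25 arrays, and Il18r1, a chain of the interleukin 18 receptor, -6.55 to 6.92 over 23. Il18bp, which neutralises interleukin 18, was positive on 12 of 13 Cy5 arrays and negative on 10 of 13 Cy3 arrays. Il10, which restrains macrophages, had 21 values between -2.42 and 0.890, and Il17a, the neutrophil-recruiting product of Th17 cells, had 28 between -3.08 and 3.33.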

How the data were processed

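Spleen RNA of irradiated and sham-exposed male mice was hybridised in pairs to 38 two-colour long oligonucleotide arrays. Per the paper's methods, the authors removed spots of poor quality or low expression, subtracted local background and applied Lowess within arrays. The deposited values are a signed score per spot, with scale, log base and dye direction unstated. Array medians were not at 0. The number of arrays limits the precision, since spot intensities were not used here.

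Control spots were left out and spots of a probe averaged. Each array was centred on its median over probes and arrays with irradiated RNA in Cy3 were multiplied by -1. A strain value is the mean of both dye orientations, each averaged over its arrays. Probes were named by matching accessions to RefSeq genes of GRCm38.p6, which gave 1 symbol for 6518 of 21618 probes and none for 15100. A probe needed 19 or more arrays with a value, among them each orientation in all 6 strains, to be tested with limma (version 3.58.1, R 4.3.3) against 0 over 6 strain values. Differences between strains were tested with limma's F test over arrays of 1 orientation, for probes with at least 2 values in each strain. Responses within strains were fitted over 38 arrays with dye as a covariate. All p-values were adjusted by Benjamini-Hochberg over all probes tested and called at an adjusted p under 0.05. The procedures were run on simulated data with independent arrays and, for each probe, the same dye bias in all strains. Those data held neither repeats of the same mice nor dye terms that differ between strains, so they do not cover these features.

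The labels do not say that arrays of a strain came from separate mice, and p-values over arrays then measure only the spread between arrays, which may in part be technical. Members named with values were, in ligands and in receptor chains, those with the smallest p over strains (up to 6) and between strains (up to 3), the largest value in each strain, and every pair of a ligand and its own receptor. Others named were chosen after their values were seen. The members and lists were chosen with earlier results of these data known. Of the genes that fit the rule, 1 is not reported here. Alternatives changed the centring, scaling, filter on missing values, spread estimate, unit of replication, orientation and treatment of unsettled arrays, or left out each array and strain. Fits with a dye term for each strain were added after seeing the data.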

Additional observations from a re-analysis of the deposited data

Results flagged for a closer look

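For Il1b, the strain value of B6.C, -0.467, stood far from those of the other 5 strains, which lay between 0.406 and 0.864. With the unsettled arrays turned, B6.C was at -0.0805 and BI6Jx at 0.0455, and without them at -0.365 and 0.0845, so the gap rests in part on those arrays. For Il9r, the strain value of BI6Jx, -0.419, stood far from the other 5, which lay between -0.107 and 0.0344. Among the 8 B6.C arrays with a value for Il9, array 53, of unsettled direction, gave 1.93, where the other 7 lay between -1.98 and -0.128. The strain value of Il9 in B6.C was -0.781 with all arrays, -0.878 with the unsettled arrays turned and -1.11 without them. Such distances were looked for in 28 sets of strain values and 35 sets of arrays, where chance alone gives about 1 in 20, and were found in 2 and 1.

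Strains differed in Il13ra2 (adjusted p = 0.0186) and Il20 (adjusted p = 0.0317) over the Cy5 arrays (irradiated RNA in Cy5), and in Il9 (adjusted p = 0.0103) over the Cy3 arrays, by limma's F test. In the other orientation the adjusted p of these 3 genes was 0.487, 0.826 and 0.599, and with a dye term for each strain 0.942, 0.287 and 0.641. Dye terms that differ between strains move with these results, and their part was not tested.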

How the results depend on the processing

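No paired analysis was possible because the labels do not state which arrays repeat a pair of mice, and strains share no animals. No member was called over strains in any alternative run. Over all probes that count was 0, and 31 with the values as deposited, and it was 0 whenever an array or strain was left out. At an unadjusted p under 0.05 there were 0 to 4 members over the fits that left out an array or strain.

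Probes called between strains numbered 369. They came to 10198 as deposited, 1166 after scaling, 651 after quantile normalization, 817 with the looser and 78 with the stricter filter on missing values, 60 with the spread of each probe alone, 229 over the Cy3 arrays and 115 with a dye term for each strain (added after seeing the data). Leaving out an array or strain gave 32 to 772. The cause was not tested, beyond the number of probes each filter admits. Members called there numbered 2, and 25 as deposited, 2 after quantile normalization (neither Il13ra2 nor Il20 among them, at 0.0662 and 0.0560), 7 after scaling, 1 with the stricter filter, 1 without the unsettled arrays, 0 with the spread of each probe alone, 1 over the Cy3 arrays, 0 with a dye term for each strain, and 0 to 5 on leaving out an array or strain. Il4, at an adjusted p of 0.0509, passed without any 1 of 6 arrays or 3 strains (0.0261 to 0.0481). A strain of 2 arrays left with 1 was taken to vary like the others.

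Calls within strains, summed over 6 strains, numbered 105, and 2 as deposited, 58 with the stricter filter, 445 with a dye term for each strain, and 0 to 551 on leaving out an array or strain. For members they were 0, and 0 to 1 on leaving out an array or strain. The median mean of ligands, 0.0699, was 0.287 as deposited and -0.0181 to 0.131 on leaving out an array or strain. That of receptor chains, 0.105, was 0.224 as deposited and 0.0162 to 0.144. As deposited, the median of all probes was 0.121. Of 28 members followed through the alternatives, 15 kept the sign of their mean in all of them and 13, such as Il1a, Il1r1 and Il22, did not, and none was called. Treating 38 arrays as units with strain as a random block gave a block correlation of -0.0125.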
